A study of Mus musculus with 17 samples.

Results

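The genes described here are 9 factors that organize lymphoid tissue, followed in the diaphragm of mice with and without a tumor. They were taken by symbol from the table of transcript levels: the chemokines Cxcl13, Ccl19 and Ccl21a, the chemokine receptors Cxcr5 and Ccr7, the lymphotoxins Lta and Ltb with their receptor Ltbr, and the B cell survival factor Tnfsf13b (BAFF). All 9 were found among the 47643 symbols listed. RNA came from the diaphragm muscle of 17 male mice of the C57BL/6J strain, all 4 months of age. Of the mice without a tumor, 5 formed the Control group and 5 the Control + rFibcd1 group, and of those with a tumor, 3 formed the LLC group and 4 the LLC + rFibcd1 group. LLC mice received Lewis lung carcinoma cells, a line from a lung tumor of the same mouse strain, under the skin of the flanks, so the tumor did not grow in the muscle sampled, whereas Control mice carried no tumor. rFibcd1 is a recombinant C-terminal piece of the mouse protein Fibcd1, which carries a fibrinogen-like domain, and it was given into the peritoneal cavity, which borders the diaphragm. Mice of the Control and LLC groups were mock-injected with the albumin-containing vehicle. The design asks whether a distant tumor changes these transcripts in a breathing muscle, and whether rFibcd1 alters that.

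Lymph nodes, the spleen and clusters of lymphocytes in other tissues are laid out by a small set of signals. Stromal cells release CXCL13, which draws in cells that carry its receptor CXCR5, mainly B cells and follicular helper T cells, and they release CCL19 and CCL21, which draw in T cells and dendritic cells through the receptor CCR7. The lymphocytes in turn carry lymphotoxin, built from the products of Lta and Ltb, which acts on the lymphotoxin-beta receptor (Ltbr) of stromal cells, and through NF-kB it turns on more chemokine. BAFF, the product of Tnfsf13b, keeps mature B cells alive. The serous membranes of the peritoneal cavity hold small lymphoid clusters in which CXCL13 is known to be made.

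The promoters are shown first, because these chemokine and lymphotoxin genes are known targets of NF-kB. RefSeq promoter windows of the GRCm38.p6 build matched 7 of the 9 symbols. Each line gives the 250 bases before the RefSeq start of the gene, 5′ to 3′ on the strand of the gene. Capitals mark matches to an NF-kB consensus (the kB motif), to TTCNNNGAA (a STAT-type motif), to GAAANNGAA (an IRF-type motif) or to a RelB-type kB motif. Both strands were searched. The RelB-type motif was added after the promoter of Cxcl13 had been read.
Cxcl13 (chr5:95956689-95956938, plus strand): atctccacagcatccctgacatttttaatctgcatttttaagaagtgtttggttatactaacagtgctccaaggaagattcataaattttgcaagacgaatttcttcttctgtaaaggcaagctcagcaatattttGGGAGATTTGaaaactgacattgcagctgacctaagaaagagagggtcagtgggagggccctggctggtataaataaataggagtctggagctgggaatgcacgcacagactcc
Ltb (chr17:35194257-35194506, plus strand): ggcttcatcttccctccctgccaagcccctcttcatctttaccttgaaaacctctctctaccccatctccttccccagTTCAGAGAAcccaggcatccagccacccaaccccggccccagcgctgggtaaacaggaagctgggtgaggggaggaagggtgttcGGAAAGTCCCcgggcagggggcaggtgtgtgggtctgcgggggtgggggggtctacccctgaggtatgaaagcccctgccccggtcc
Ccl19 (chr4:42756366-42756615, minus strand): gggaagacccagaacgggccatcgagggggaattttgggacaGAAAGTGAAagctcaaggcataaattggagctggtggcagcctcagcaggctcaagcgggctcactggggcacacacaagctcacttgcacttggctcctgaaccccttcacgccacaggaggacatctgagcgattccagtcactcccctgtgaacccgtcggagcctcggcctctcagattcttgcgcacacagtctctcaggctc
Ccl21a (chr4:42773992-42774241, minus strand): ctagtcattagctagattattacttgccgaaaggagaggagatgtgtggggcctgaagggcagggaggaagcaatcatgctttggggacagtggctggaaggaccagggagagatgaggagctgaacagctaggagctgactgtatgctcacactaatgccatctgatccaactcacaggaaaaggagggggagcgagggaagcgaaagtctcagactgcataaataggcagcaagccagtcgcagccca
The capitals of Cxcl13 are a RelB-type kB match that begins at position -114 from the start. Ltb held a STAT-type match at -172 and a kB match at -87, and Ccl19 an IRF-type match at -208. No capitals appear for Ccl21a, which held none of the 4 motifs in its window. Of the promoters not printed, Lta held 2 STAT-type matches, Tnfsf13b an IRF-type match at -16 in 1 of its 2 windows, and Ltbr none. Ltb was thus the 1 member of the 7 with the kB consensus. Of 32817 RefSeq promoter windows of the same 300 bases (250 before and 50 after the start), 8.46% held the kB motif, 8.29% the STAT-type motif, 8.55% the IRF-type motif and 0.366% the RelB-type motif. The RelB-type share cannot weigh the match in Cxcl13, since that motif was chosen after this promoter had been read. The marked matches do not overlap each other. These are matches of letters and not measured binding.

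In the GRCm38 annotation of GENCODE, Cxcl13 lies at chr5:95956951-95961068 and Cxcr5 at chr9:44511787-44561877, where 110 bases of exon are shared with Bcl9l. Ccl19 (chr4:42754525-42756577) and Ccl21a (chr4:42772860-42773993) lie close together on the minus strand. Lta (chr17:35203165-35205351) and Ltb (chr17:35194439-35196320) lie close together on opposite strands. Ccr7 lies at chr11:99144196-99155077, Ltbr at chr6:125306571-125313885 and Tnfsf13b at chr8:10006467-10039072. The GENCODE starts of Ccl19 and Tnfsf13b lie before the RefSeq starts of the windows that held their IRF-type matches. Both IRF-type matches therefore lie inside the gene as annotated by GENCODE. The GENCODE start of Ltb also falls inside its window, but after its STAT-type and kB matches. A second gene of almost the same sequence as Ccl21a, listed as Gm21541, lies at chr4:41903610-41904743. Both transcripts are 870 bases long and differ at 6 bases, of which T84A and C194T fall in the coding sequence of 399 bases, counted from its first base with the base of Ccl21a first. Bases 70 to 99 of the coding sequence show how little separates them, with the differing base in capitals.
Ccl21a: agtgatggagggggTcaggactgctgcctt
Gm21541: agtgatggagggggAcaggactgctgcctt
Reads that cover none of these 6 bases cannot be assigned to one gene of the pair, and the value of Ccl21a is uncertain to that extent.

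Levels are given in TPM (transcripts per 1000000), which corrects for gene length, so genes may be compared. From the steps of the low values, each library was estimated to hold 50.7 to 54.5 × 1000000 reads. The labelled tissue was borne out by 8 skeletal muscle genes, which summed to between 41726 and 54202 TPM per mouse with none at 0. Mitochondrially encoded transcripts took 41.3% to 44.3% of TPM in LLC mice and 45.9% to 48.4% in Control mice. The median gene rose by 0.16 on the log2 scale from Control to LLC, so changes relative to that shift are given beside the fitted ones. The share of higher genes among all calls was 83.2% on the deposited scale, 62.9% without the mitochondrial genes, 52.7% after median-ratio scaling and 32.2% after quantile normalization. In a bulk sample, more cells of a type and more RNA per cell cannot be told apart, and this holds for every result below.

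In Control mice the levels ran from Ccl21a at the top to Tnfsf13b at the bottom. Ccl21a averaged 218 ± 18.8 TPM (SD, n = 5), above all other members in every Control mouse. Cxcl13 followed with 29.6 ± 33.1 TPM and Ltbr with 24.0 ± 1.13 TPM, and the ranges of these neighbours overlapped because Cxcl13 varied so much. Ltbr stood clear of the next gene, Ltb, at 5.36 ± 5.19 TPM. From Ltb downwards, each gene overlapped with the next in the order: Ccl19 (3.90 ± 1.86 TPM), Cxcr5 (2.38 ± 2.04 TPM), Ccr7 (1.04 ± 0.782 TPM), Lta (0.510 ± 0.375 TPM) and Tnfsf13b (0.436 ± 0.10 TPM).

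**Figure D1:**
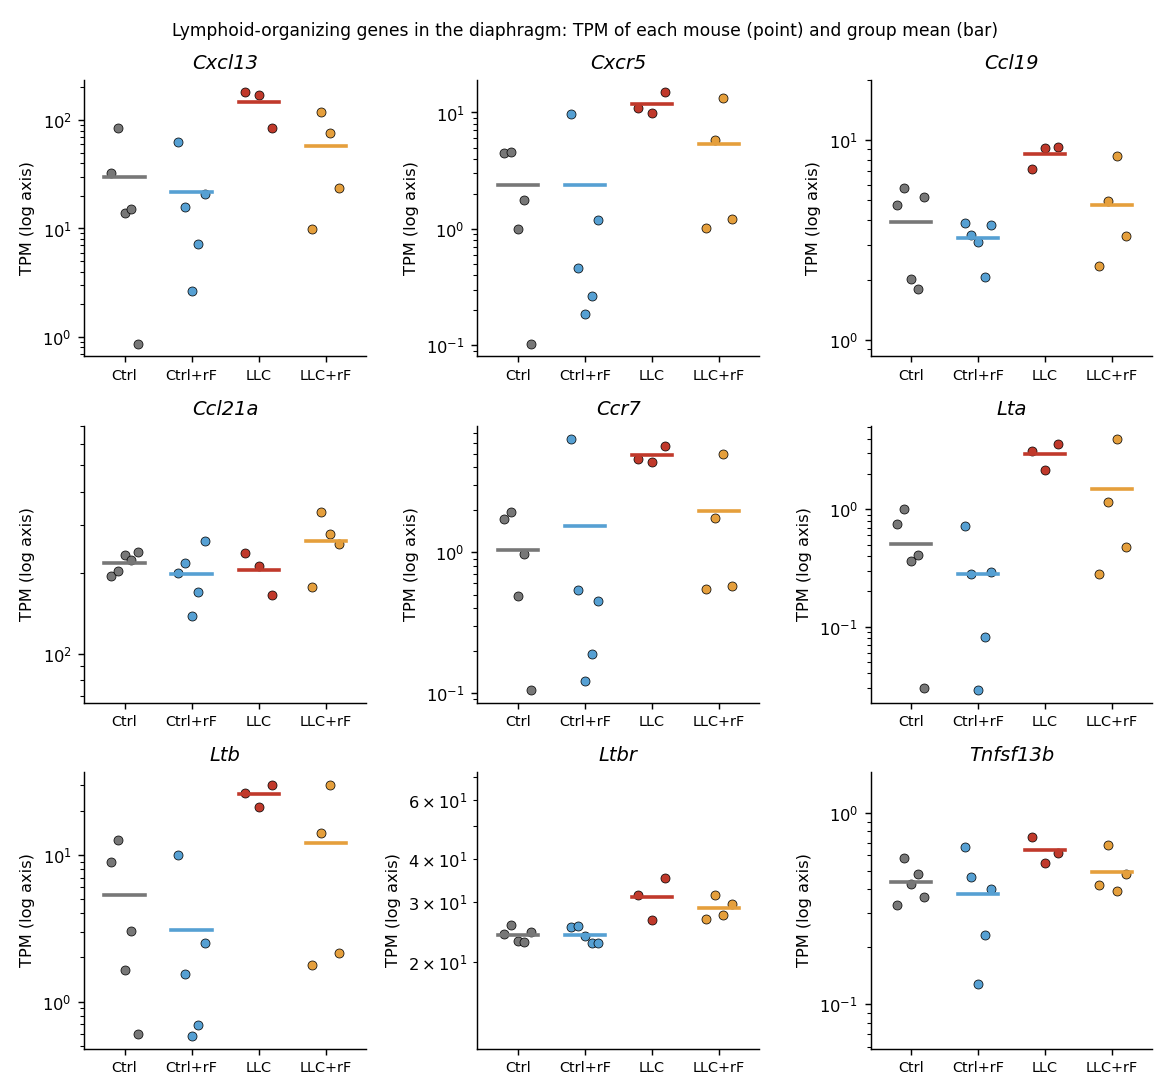
TPM of each of the 9 genes on a log axis (vertical) in Control (Ctrl), Control + rFibcd1 (Ctrl+rF), LLC and LLC + rFibcd1 (LLC+rF) mice. Points are mice and bars are group means. The LLC mice lie above every Control mouse for 6 of the 9 genes, for example between 21.3 and 30.0 TPM for Ltb. Ccl21a stays between 138 and 335 TPM in all 17 mice.

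Cxcl13, the B cell attracting chemokine, was the member with the widest range: the highest mouse held 209 times the TPM of the lowest. Cxcl13 stood at 32.7, 85.2, 13.9, 15.1 and 0.864 TPM in the 5 Control mice, and at 180.2, 171 and 85.1 TPM in the 3 LLC mice. The groups met at one point, where the highest Control mouse and the lowest LLC mouse were almost equal. On log2(TPM + 1), Cxcl13 rose by 3.06 ± 1.11 (SE) from Control to LLC, or 2.90 relative to the median gene (adjusted p = 0.0435, limma with Benjamini-Hochberg adjustment over all 13305 genes tested). Control + rFibcd1 mice held 63.1, 15.8, 2.65, 7.20 and 20.8 TPM, within the Control range. The 4 LLC + rFibcd1 mice held 9.83, 119.6, 75.5 and 23.5 TPM, so that 1 of them lay inside the LLC range and the other 3 below it. The call for Cxcl13 was lost without any one of 8 mice (Control replicates 3, 4 and 5, Control + rFibcd1 replicates 2 and 5, and each LLC mouse), where adjusted p reached 0.124 without LLC replicate 1. It was also lost with a pseudocount of 0.1 (adjusted p = 0.0530), no filter (0.0655), median-ratio scaling (0.0544), mitochondrial genes removed (0.0571) and only Control and LLC in the fit (0.0522).

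Cxcr5, the receptor for CXCL13, was lower throughout and moved the same way. Cxcr5 stood at 4.48, 4.56, 0.991, 1.76 and 0.103 TPM in Control and at 11.0, 9.91 and 14.9 TPM in LLC, without overlap. It rose by 2.17 ± 0.77 on the log2 scale (adjusted p = 0.0406, limma). In Control + rFibcd1, 1 mouse reached 9.74 TPM while the other 4 lay between 0.184 and 1.20 TPM. LLC + rFibcd1 mice held 1.02, 5.85, 13.3 and 1.22 TPM, of which only the 13.3 TPM mouse lay within the LLC range. The call for Cxcr5 was lost without Control replicate 3, 4 or 5 or any LLC mouse, with adjusted p up to 0.139 without LLC replicate 3. The same happened with a pseudocount of 0.1 (adjusted p = 0.0674), no filter (0.0614), median-ratio scaling (0.0533) and mitochondrial genes removed (0.0594).

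Of the pair of chemokines that act on CCR7, Ccl19 rose and Ccl21a did not pass the test. Ccl19 stood at 4.73, 5.76, 2.02, 1.80 and 5.20 TPM in Control and at 7.16, 9.15 and 9.25 TPM in LLC, again without overlap. Its log2 change was 1.05 ± 0.33 (adjusted p = 0.0264, limma), or 0.88 relative to the median gene. LLC + rFibcd1 mice held 2.34, 4.97, 8.32 and 3.30 TPM of Ccl19, and Control + rFibcd1 mice 2.07 to 3.87 TPM. Without Control replicate 3 or 4 or any LLC mouse its adjusted p lay above the threshold, at up to 0.103 without LLC replicate 3, and after quantile normalization it was 0.0585. Further loci of Ccl19-like sequence were listed, Gm2564 and Ccl19-ps1, and reads may be split between these loci. Gm2564 went from 5.74 ± 1.91 TPM in Control to 11.4 ± 1.94 TPM in LLC.

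Ccl21a, which in mice is made by lymph node stroma and lymphatic vessels, was the most abundant member in every mouse. It stood at 194, 203, 232, 223 and 238 TPM in Control and at 236, 212 and 166 TPM in LLC, and these ranges overlapped. Control + rFibcd1 mice held 199, 217, 138, 170.2 and 262 TPM. LLC + rFibcd1 mice held 177, 335, 278 and 256 TPM, of which 3 lay above every Control and every LLC mouse. The log2 difference between LLC and Control was -0.10 with a 95% interval from -0.53 to 0.33 (adjusted p = 0.707, limma). The fitted rise of Ccl19 (1.05) lay outside this interval, but its own interval ran from 0.34 to 1.75. No test compared the changes of Ccl19 and Ccl21a. Without LLC replicate 3 the sign of the Ccl21a difference turned, to 0.038. Ccl21a took between 61.8% and 72.3% of the summed TPM of Ccl21a and its copy Gm21541. The pair together reached 322 ± 12.8 TPM in Control and 298 ± 59.3 TPM in LLC, a log2 difference of -0.13 (adjusted p = 0.627, limma, on the sum, a check added after the copies had been seen).

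**Figure D2:**
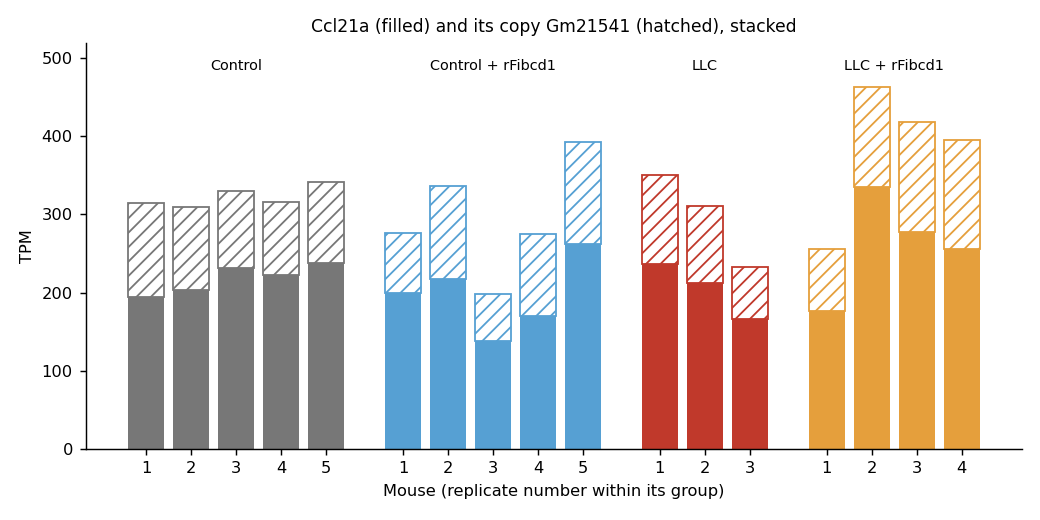
TPM (vertical, from 0) of Ccl21a (filled) and its near-identical copy Gm21541 (hatched), stacked for each of the 17 mice and coloured by group. Ccl21a makes up 61.8% to 72.3% of each bar, and the summed bars of the 3 LLC mice (233 to 349 TPM) overlap those of the 5 Control mice (310.3 to 341 TPM).

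Ccr7, the receptor for both of these chemokines on T cells and dendritic cells, rose from Control to LLC. Its level was 1.73, 1.92, 0.486, 0.971 and 0.105 TPM in Control and 4.60, 4.37 and 5.66 TPM in LLC, without overlap. The log2 change was 1.61 ± 0.57 (adjusted p = 0.0402, limma). The highest Ccr7 of all 17 mice was found in a Control + rFibcd1 mouse, at 6.42 TPM, whereas the other 4 of that group held 0.121 to 0.536 TPM. LLC + rFibcd1 mice held 0.552, 1.76, 4.96 and 0.575 TPM. The call for Ccr7 was lost without Control replicate 3, 4 or 5 or any LLC mouse (adjusted p up to 0.134, without LLC replicate 3). It was lost too with a pseudocount of 0.1 (adjusted p = 0.0634), no filter (0.0604), median-ratio scaling (0.0551), quantile normalization (0.0557) and mitochondrial genes removed (0.0575).

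The lymphotoxin genes Ltb and Lta and the receptor gene Ltbr were each called higher in LLC than in Control. All of these calls were lost without LLC replicate 3. Ltb, the membrane-anchored subunit, stood at 8.92, 12.6, 1.63, 3.01 and 0.601 TPM in Control and at 26.4, 21.3 and 30.0 TPM in LLC, so every LLC mouse was above every Control mouse. It rose by 2.51 ± 0.86 on the log2 scale (adjusted p = 0.0355, limma), or 2.35 relative to the median gene. Control + rFibcd1 mice held 10.0, 1.55, 0.581, 0.692 and 2.51 TPM. LLC + rFibcd1 mice divided into a pair with 1.77 and 2.15 TPM and a pair with 14.0 and 29.9 TPM. The call for Ltb was lost without Control replicate 3, 4 or 5 or any LLC mouse, with adjusted p up to 0.120 without LLC replicate 3, and with no filter (0.0539).

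Lta, the other lymphotoxin subunit, was scarce. It stood at 0.748, 1.00, 0.362, 0.405 and 0.0299 TPM in Control and at 3.16, 2.16 and 3.62 TPM in LLC. LLC + rFibcd1 mice held 0.282, 1.15, 4.01 and 0.482 TPM, and Control + rFibcd1 mice 0.0289 to 0.718 TPM. The groups Control and LLC did not overlap, and the log2 change was 1.42 ± 0.35 (adjusted p = 0.0128, limma). Lta reached 1 TPM in 6 mice, of which 1 was tumor-free, so it entered the test through the groups in which it was high. With no filter on level its adjusted p was 0.0189. By the estimate from low values its TPM stands for between about 1 and 143 reads per mouse. Its call was lost without LLC replicate 3 (adjusted p = 0.0730).

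Ltbr, the lymphotoxin-beta receptor of stromal and myeloid cells, had the smallest change among the genes that rose, and its coefficient of variation was 4.69% in Control and 14.2% in LLC. It stood at 24.1, 25.6, 23.1, 22.9 and 24.5 TPM in Control and at 31.5, 26.5 and 35.3 TPM in LLC. Control + rFibcd1 mice held 22.7 to 25.5 TPM and LLC + rFibcd1 mice 26.7, 31.5, 27.5 and 29.5 TPM. All 7 tumor-bearing mice therefore lay above all 10 tumor-free mice. Among the genes tested, 1.74% were higher without overlap in this way. The log2 change from Control to LLC was 0.35 ± 0.079 (adjusted p = 0.0111, limma) and 0.19 relative to the median gene. It was 0.17 after median-ratio scaling (adjusted p = 0.0559) and 0.18 after quantile normalization (adjusted p = 0.0404). Without LLC replicate 3 it was 0.26 (adjusted p = 0.0724).

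Tnfsf13b (BAFF) reached 1 TPM in 0 of 17 mice and did not enter the fit. It stood at 0.330, 0.583, 0.426, 0.478 and 0.362 TPM in Control and at 0.747, 0.546 and 0.620 TPM in LLC, which overlapped. The difference of mean log2(TPM + 0.1) was 0.47 (exact permutation test over mice, two-sided, p = 0.0714, adjusted p = 0.143 over 2 tests, with a smallest possible p of 0.0179). Without Control replicate 2, the Control mouse that overlapped LLC, the exact p was 0.0286 before adjustment. That is the smallest p possible with the mice left. LLC + rFibcd1 mice held 0.420, 0.680, 0.390 and 0.479 TPM, and their difference from LLC was -0.33 (exact p = 0.143, smallest possible 0.0286). With the filter lowered to 0.1 TPM, limma gave a log2 change of 0.19 from Control to LLC (adjusted p = 0.180).

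Of the 8 members that entered the test, 7 rose from Control to LLC at an adjusted p under 0.05, and Ccl21a did not. Over all genes tested, 29.7% rose by the same rule. Among the 7, Lta had entered the test through tumor-bearing mice. The members were also chosen with earlier results of these data known, so the 2 shares are a description and not a test. The median log2 change of the 8 was 1.51, beside 0.16 over all genes. Among all 9 members, 6 were higher in every LLC mouse than in every Control mouse (Cxcr5, Ccl19, Ccr7, Lta, Ltb and Ltbr), and 33.6% of the genes tested were so. The count of 7 fell to 2 without Control replicate 3, Control replicate 4, LLC replicate 1 or LLC replicate 2, to 3 without Control replicate 5 and to 0 without LLC replicate 3. Most of the adjusted p-values lie close to the threshold, and the rank-based Dunn's test with adjustment over all genes called 0 of the 8 (5 at an unadjusted p under 0.05) and 0 of all genes (4993 at an unadjusted p under 0.05).

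**Figure D3:**
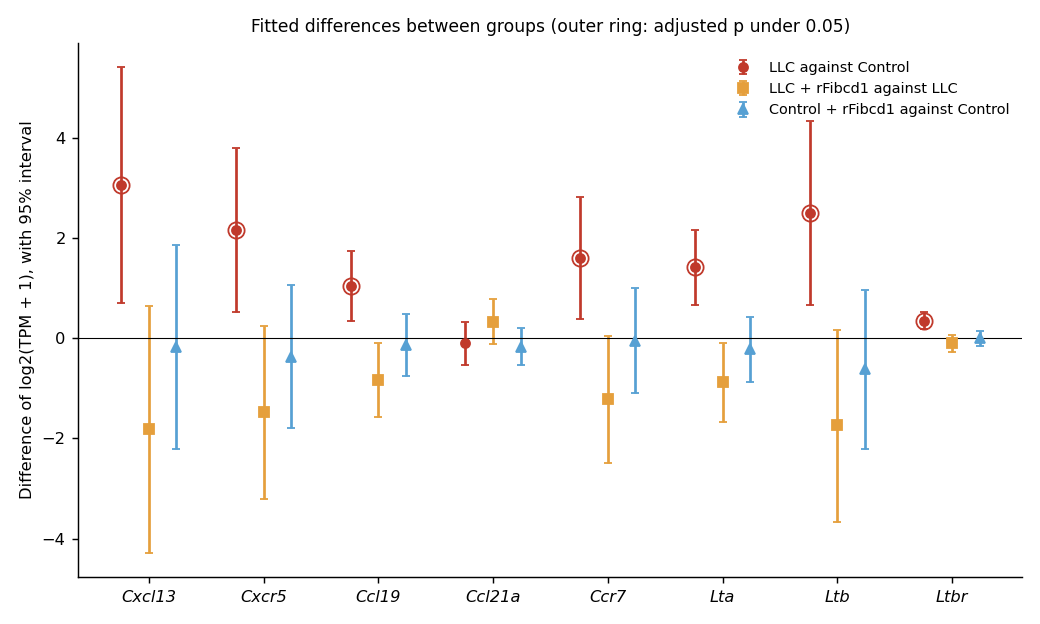
Fitted difference of log2(TPM + 1) with its 95% interval (vertical) for the 8 genes tested, in LLC against Control (circles), LLC + rFibcd1 against LLC (squares) and Control + rFibcd1 against Control (triangles). Outer rings mark an adjusted p under 0.05, which 7 circles carry and no square or triangle does, and the widest intervals belong to Cxcl13.

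Within tumor-bearing mice, 7 of the 8 genes tested had lower fitted levels with rFibcd1 than without, and none passed the test. The fitted log2 difference of Cxcl13 was -1.81 with a 95% interval from -4.28 to 0.65 (adjusted p = 0.317, limma). It ran from -1.19 without LLC + rFibcd1 replicate 1 to -2.35 without LLC + rFibcd1 replicate 2. For Ltb the fitted difference was -1.74, from -3.66 to 0.17 (adjusted p = 0.242), and for Cxcr5 -1.48, from -3.20 to 0.24 (adjusted p = 0.258). For Ccr7 it was -1.22, from -2.49 to 0.056 (adjusted p = 0.229). The intervals thus held both no difference and falls as large as the LLC rise. Ccl19 (-0.83 ± 0.35) and Lta (-0.88 ± 0.37) were the 2 members with an unadjusted p under 0.05, and both had an adjusted p of 0.205, while 22.7% of all genes had an unadjusted p under 0.05. Ltbr differed by -0.10 ± 0.082, which turned to 0.021 after median-ratio scaling and 0.0055 after quantile normalization. It was -0.21 without LLC replicate 2 and -0.0063 without LLC replicate 3. Ccl21a was the member with a higher fitted level, by 0.33 with an interval from -0.12 to 0.78 (adjusted p = 0.314). That difference was 0.19 without LLC replicate 3 and 0.51 without LLC + rFibcd1 replicate 1.

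Over all genes, 0.113% were called in this comparison and 9.30% were lower in every LLC + rFibcd1 mouse than in every LLC mouse, against 0 of the 9 members. The members' median log2 difference was -1.05, beside -0.11 over all genes. In the LLC + rFibcd1 group the same mice were high or low for most members. Replicate 3 ranked among the top 3 of all 17 mice for Cxcr5, Ccl19, Ccl21a, Ccr7, Lta and Ltb, whereas replicate 1 ranked between 11 and 14 for 8 of the members and at 6 for Ltbr. Without LLC + rFibcd1 replicate 3, Lta passed the threshold with a log2 difference of -1.30 (adjusted p = 0.0484) and was the 1 member to do so.

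In mice without a tumor, rFibcd1 gave no call among the members. Control + rFibcd1 against Control gave log2 differences between -0.62 (Ltb) and -0.00086 (Ltbr), and the smallest adjusted p was 0.927 (limma). At an unadjusted p under 0.05, 0 members differed by limma or by Dunn's test, and over all genes 0% were called (584 genes at an unadjusted p under 0.05). The intervals were wide for the variable genes, for example from -2.22 to 1.87 for Cxcl13, and narrow for Ltbr, from -0.15 to 0.14. The interaction, which compares the rFibcd1 difference of tumor-bearing mice with that of tumor-free mice, called 0 members and 0% of all genes by limma (0 members and 1142 genes at an unadjusted p under 0.05). Its smallest p was that of Ccl21a, 0.0853 before adjustment, with an interaction of 0.50 ± 0.27.

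Tumor-bearing mice given rFibcd1 were also set against Control. Here 0 of the 8 members and 3.08% of all genes were called. Ltbr came closest, with a log2 change of 0.25 ± 0.072 (adjusted p = 0.0739, limma), and it was the 1 member higher in every LLC + rFibcd1 mouse than in every Control mouse, as were 5.96% of the genes tested. It passed without LLC replicate 2 (adjusted p = 0.0365) or LLC replicate 3 (adjusted p = 0.0498). Cxcl13 differed by 1.24 ± 1.02 (adjusted p = 0.514) and Ltb by 0.76 ± 0.79 (adjusted p = 0.613). This comparison shares its Control mice with LLC against Control, and no direct comparison of the 2 sets of calls was made.

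With both tumor-bearing groups set against both tumor-free groups, 6 of the 8 members rose, beside 38.8% of all genes. Ltbr (0.29 ± 0.053, adjusted p = 0.00179, limma) and Lta (1.02 ± 0.24, adjusted p = 0.00501) kept an adjusted p under 0.05 without any one mouse, with largest values of 0.00594 and 0.0214, but Lta had entered the test through mice with a tumor. Ltb rose by 1.82 ± 0.58 (adjusted p = 0.0206), Cxcr5 by 1.51 ± 0.52 (adjusted p = 0.0293), Ccl19 by 0.64 ± 0.22 (adjusted p = 0.0316) and Cxcl13 by 2.11 ± 0.75 (adjusted p = 0.0328). Ccr7 (0.94 ± 0.39, adjusted p = 0.0595) and Ccl21a (0.17 ± 0.14, adjusted p = 0.312) did not pass. The count of 6 fell to 2 without LLC replicate 1 or 3 and to 3 without LLC replicate 2 or Control + rFibcd1 replicate 4. With one mouse left out, the largest adjusted p was 0.0841 for Cxcl13, 0.0852 for Cxcr5, 0.0991 for Ccl19 and 0.0623 for Ltb.

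Cxcl13 was then compared with the other members from mouse to mouse, after the mean of each group had been subtracted on log2(TPM + 1), over all 17 mice. Of the other members, Ltb and the receptor Cxcr5 went with it most closely. Pearson's r was 0.871 with Ltb (adjusted p = 0.00168 over 8 relations, permutation of mice within groups, Spearman's rho 0.897), and 0.834 with Cxcr5 (adjusted p = 0.00168, rho 0.895). It was 0.762 with Ccr7 (adjusted p = 0.00216, rho 0.863), 0.687 with Lta (adjusted p = 0.00464, rho 0.787) and 0.672 with Tnfsf13b (adjusted p = 0.00891, rho 0.566). For Tnfsf13b the permutation p of rho missed the threshold after adjustment (0.0652).

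The relations of Cxcl13 with Ccl21a (r = 0.430, rho = 0.392, adjusted permutation p = 0.128), Ccl19 (r = 0.371, rho = 0.544, adjusted p = 0.289) and Ltbr (r = 0.213, rho = 0.275, adjusted p = 0.323) did not pass. Leaving out the 2 mice farthest from the median of Cxcl13 (Control replicate 5 and Control + rFibcd1 replicate 3) kept the 5 called relations below the threshold, with r between 0.639 for Tnfsf13b and 0.882 for Ltb. The same step raised r with Ccl19 to 0.790 (adjusted permutation p = 0.0168, n = 15). In Control replicate 5, Cxcl13, Cxcr5 and Ccr7 were the lowest of all 17 mice while Ccl19 ranked at 6. Among the other members, Cxcr5 went most closely with Ccr7 (r = 0.973) and Ltb (r = 0.971), and Ltbr least closely with Ccl21a (r = 0.0565). These last r are descriptions over the same 17 mice.

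The tested genes most like Cxcl13 in the same centred values, immunoglobulin segments left out, were Jchain (r = 0.946), which links polymeric antibodies in plasma cells, Enpp2 (r = 0.944), the secreted enzyme autotaxin, and Cd79a (r = 0.939), a part of the B cell receptor. Fcna (r = 0.933), ficolin A of macrophages, and Timd4 (r = 0.932), a phosphatidylserine receptor of resident macrophages, followed. For Cxcr5 they were the B cell kinase Blk (r = 0.992) and Fgd2 (r = 0.990). For Ltb they were H2-Oa (r = 0.993), a part of the antigen-loading machinery of B cells, and Ptprcap (r = 0.993), which binds the leukocyte phosphatase CD45. Ccr7 was most like P2ry10 (r = 0.978) and the activation marker Cd69 (r = 0.976), and Lta most like the chemokine receptor Ccr6 (r = 0.982) and Ell3 (r = 0.977).

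Ccl19, Ccl21a and Ltbr were most like genes of other kinds. Ccl19 was most like Gm2564 (r = 0.911), the Ccl19-like locus, and Plekho1 (r = 0.902). Ccl21a was most like Cmpk2 (r = 0.883), an interferon-induced nucleotide kinase, and the basement membrane collagen Col15a1 (r = 0.866). Ltbr was most like the adaptor Shb (r = 0.900) and the Polycomb gene Pcgf2 (r = 0.898). All are descriptions over 17 mice of the same libraries.

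Genes around these members were followed in 3 lists. Of 13 other TNF family ligands and receptors, 10 were tested and 9 rose from Control to LLC (median log2 change 0.87, beside 0.16 over all genes), where 29.7% of all genes rose. The largest changes were those of the receptors for BAFF and its relative APRIL. Tnfrsf13c, the BAFF receptor, went from 2.11 ± 1.84 to 12.2 ± 2.40 TPM (log2 2.31 ± 0.72, adjusted p = 0.0247, limma). Tnfrsf13b (TACI) went from 2.04 ± 1.39 to 9.40 ± 0.416 TPM (log2 1.90 ± 0.56, adjusted p = 0.0199). Tnfrsf17 (BCMA), the receptor of plasma cells, rose by 1.11 ± 0.32 (adjusted p = 0.0189), and it too passed the filter through tumor-bearing mice, as did Tnf and Tnfrsf11a. Tnfsf14, Tnfsf11 and Cd40lg were below the filter.

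In the non-canonical NF-kB pathway, the route by which the lymphotoxin-beta receptor signals, 4 of 8 genes rose and none fell, beside 29.7% of all genes that rose (median 0.29, beside 0.16). Birc3 went from 5.02 ± 0.951 to 9.79 ± 1.02 TPM (log2 0.85 ± 0.23, adjusted p = 0.0150, limma). Nfkb2, which encodes p100, went from 15.8 ± 2.17 to 27.3 ± 3.73 TPM (log2 0.75 ± 0.16, adjusted p = 0.0105). Its partner Relb went from 4.13 ± 0.797 to 7.47 ± 0.834 TPM (log2 0.73 ± 0.15, adjusted p = 0.00996). Traf3 was the other gene called. Of 15 homing and adhesion genes, 12 were tested and 10 rose, again beside 29.7% of all genes (median 0.98). Glycam1, a mucin of lymph node venules, went from 0.686 ± 1.18 to 7.63 ± 2.32 TPM (log2 2.54 ± 0.69, adjusted p = 0.0159), and like Ch25h and Cyp7b1 of this list it passed the filter through tumor-bearing mice. Cxcr4, the receptor for CXCL12, rose by 1.26 ± 0.42 (adjusted p = 0.0313). Madcam1, another venule address molecule, stayed under the filter. With rFibcd1 in tumor-bearing mice, 0 genes of the 3 lists were called, and 7, 4 and 8 of the 3 lists in that order had an unadjusted p under 0.05 (limma), of 10, 8 and 12 tested and beside 22.7% of all genes.

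Markers of lymphocytes moved with the members. Of 12 B cell markers, 11 were in the table, and all 11 rose from Control to LLC, beside 29.7% of all genes (median log2 change 2.33), led by Cd79a at 3.25 ± 1.17 (adjusted p = 0.0429, limma). Their summed TPM lay between 2.99 and 116 in Control, 4.32 and 164 in Control + rFibcd1, 271 and 345 in LLC, and 21.7 and 337 in LLC + rFibcd1, and none of the 11 was at 0 in all mice of a group. The mouse with the lowest sum was Control replicate 5, which also had the lowest Cxcl13, Cxcr5 and Ccr7. T cell markers summed to 3.28 to 22.2 TPM in Control, 2.73 to 22.1 in Control + rFibcd1, 36.8 to 59.2 in LLC and 5.34 to 56.2 in LLC + rFibcd1, and the 10 genes tested rose (median 1.57), of which Cd3e, Cd4, Cd8a, Cd8b1 and Cd5 passed the filter through tumor-bearing mice, where they were high. With the mean log2(TPM + 1) of the B cell markers as a covariate, limma called 0 of the 8 members in LLC against Control, where 1 (Ltbr) had an unadjusted p under 0.05. The loss was general, since that fit called 6 of all 13305 genes and gave 12.5% of them an unadjusted p under 0.05. The change of Cxcl13 was then 0.018 ± 0.69, that of Cxcr5 -0.19 ± 0.18, that of Ccr7 -0.043 ± 0.27 and that of Ltb -0.13 ± 0.18. The fitted changes of Ltbr (0.29 ± 0.10), Lta (0.45 ± 0.21) and Ccl19 (0.45 ± 0.36) were above 0, with adjusted p from 0.295 to 0.610. Since the marker sums of Control and LLC did not overlap, this fit cannot sort members by whether they go with B cells.

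**Figure D4:**
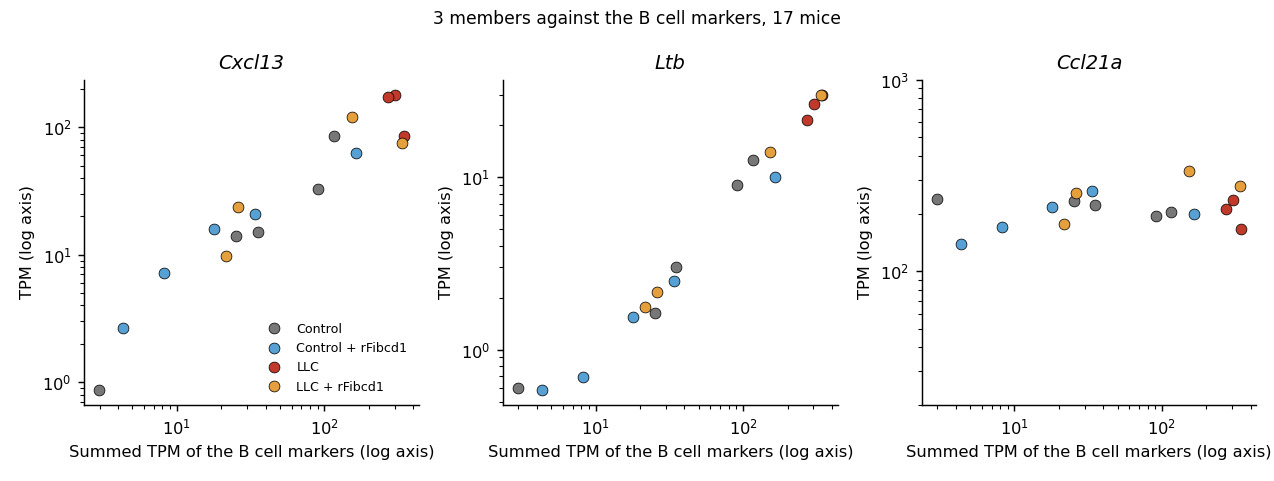
TPM of Cxcl13, Ltb and Ccl21a (vertical, log axis) against the summed TPM of 11 B cell markers (horizontal, log axis) in each of the 17 mice, coloured by group. The mice with the smallest marker sums (from 2.99 TPM) have the lowest Cxcl13 and Ltb and those with the largest (up to 345 TPM), all tumor-bearing, are among the highest, while Ccl21a stays between 138 and 335 TPM.

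For other cell types that could make or answer these factors, the counts are set beside the 29.7% of all genes that rose by the same rule. Of 6 plasma cell markers 3 rose (median 1.69), of 7 macrophage markers 3 rose (0.89), and of 7 dendritic cell markers 4 were tested and 1, Itgax, rose (0.40). Of 7 genes of reticular and follicular dendritic stroma, the cells that make CXCL13 in lymph nodes, 5 were tested and Mfge8, Clu and Enpp2 rose (median 0.60). For Clu 1 mouse stood apart: LLC replicate 3 held 522 TPM and the other 2 LLC mice 82.2 and 113 TPM, within the Control range of 50.3 to 130.2 TPM, and without it the log2 change was 0.46 ± 0.32 (adjusted p = 0.328, limma). Its adjusted p lay between 0.0166 and 0.0894 without any other single mouse. These 3 genes are also expressed outside such stroma, and Madcam1 and Grem1 of that list were below the filter. Lymphatic endothelium, a source of CCL21, gave 0 calls among 6 markers (1 at an unadjusted p under 0.05, median -0.21), and its summed TPM lay between 68.7 and 110.4 in Control and between 73.6 and 97.8 in LLC. Mesothelium, the lining of the diaphragm, gave 0 calls among 6 (0 at an unadjusted p under 0.05), with a median of 0.67 and sums from 88.8 to 172 TPM in Control and from 115 to 286 TPM in LLC. Of 8 skeletal muscle genes 3 fell, Myh1, Tnnt3 and Ckm (median of the 8 -0.18). Over all 13305 genes, 801 fell by the same rule, 1863 after median-ratio scaling and 3175 after quantile normalization. The part of these cell types in the members' changes was not tested.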

How the data were processed

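RNA from 17 diaphragms was sequenced after Trizol extraction. According to the study's methods, the authors trimmed, aligned to GRCm38 (mm10) and counted reads in CLC Genomics Workbench, and deposited TPM, scaled to a sum of 1000000 per mouse. The annotation release is not given in the sources used here. Labels and methods name different kits and instruments, so strandedness is unclear. Genes of at least 1 TPM in at least 3 mice (13305) were fitted in limma 3.58.1 (R 4.3.3) on log2(TPM + 1), with the 4 groups in one model (13 residual degrees of freedom), a mean-variance trend and Benjamini-Hochberg adjustment over all genes, at a threshold of 0.05. Correlations used 100000 permutations (Python 3.11.15, scipy 1.17.1). The scripts were tested on simulated data. The replicates are separate mice. Named genes were all 9 members, the 3 largest called changes of each pathway list, and the genes most like each member, except 1 list gene that is not reported here. Members, lists and rules were chosen with earlier results of these data known. The labels give no batch or date. Reads were estimated from steps of low TPM values, of which 81.8% to 84.5% were whole within 0.02, and no count test was run. Alternatives were another pseudocount, filter, scaling, set of samples, test, covariate or block.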

Additional observations from a re-analysis of the deposited data

Results flagged for a closer look

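Of 27 groups of 4 or 5 mice examined among the 9 genes on log2(TPM + 1), 2 held a mouse whose gap to its nearest neighbour was large for the range of its group (Dixon's criterion at 95%, by which chance marks about 1 in 20 groups). Both were the same mouse, Control + rFibcd1 replicate 1, with 9.74 TPM of Cxcr5 and 6.42 TPM of Ccr7. Its summed B cell markers were also the highest of its group, at 164 TPM. No member passed the test of the interaction between tumor and rFibcd1.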

How the results depend on the processing

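The count of 7 members called in LLC against Control was 4 with a pseudocount of 0.1, 3 with no filter, 3 after median-ratio scaling, 4 after rescaling without mitochondrially encoded genes, and 0 by Dunn's test or when the mean of the B cell markers (the B cell score) entered the model. Under the other alternatives, the replicate block aside, it was 5 or more. With each mouse left out in turn it lay between 0 and 7. Over all genes, those called higher numbered 3958 of 13305 in the main fit and 4197 of 22950 with no filter. They numbered 2078 of 13305 after median-ratio scaling, 1510 of 13305 after quantile normalization and 2480 of 13292 without mitochondrially encoded genes. The count of 6 for tumor-bearing against tumor-free was 0 with the B cell score and between 2 and 7 with a mouse left out. In LLC + rFibcd1 against LLC and in LLC + rFibcd1 against Control the count of 0 lay between 0 and 1 with a mouse left out, and for Control + rFibcd1 against Control and the interaction every alternative gave 0. With the replicate number as a block, 0 members and 5 of all 13305 genes were called in LLC against Control, and 3 members in tumor-bearing against tumor-free. The labels do not say whether equal numbers pair mice. Of 22 same-numbered pairs, 4 deviated together with r over 0.1 (range -0.46 to 0.49), and these r cannot decide whether a pairing exists. With the B cell score the sign turned in LLC against Control for Cxcr5 (-0.19), Ccr7 (-0.043) and Ltb (-0.13), and in LLC + rFibcd1 against LLC for Cxcl13 (0.29), Cxcr5 (0.15) and Ltb (0.081). With a mouse left out, Ccl21a in LLC against Control lay between -0.21 without LLC replicate 1 and 0.038 without LLC replicate 3, and Ltbr turned to 0.021 and 0.0055 in LLC + rFibcd1 against LLC after median-ratio scaling and quantile normalization. The cause of these changes was not tested. Adding Gm21541 to Ccl21a, an alternative chosen after seeing the data, left the counts at 7 and 6. With 3 LLC mice, Lta and Tnfsf13b under 1 TPM in most mice, the near-identical copy of Ccl21a and the Ccl19-like loci, the precision is limited. Values without one LLC mouse rest on 2.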
